A study of Mus musculus with 8 samples.

Results

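Monocytes were the cells of newborn parietal bone that carried transcripts of the blood monocyte programme and stayed under set limits on a few genes of macrophages, neutrophils, B cells, osteoblasts and cartilage. A cell was counted as a monocyte when it had at least 500 detected genes and mitochondrial genes under 10% of its unique molecular identifiers (UMIs, 1 per captured mRNA molecule), at least 3 of the 6 genes Ly6c2, Ccr2, Csf1r, Ms4a6c, F13a1 and Plac8 detected, and at least 2 UMIs of Ly6c2 or of Ccr2. Cells with 2 or more UMIs of C1qa, C1qb, Cd79a, Ngp or Camp were left out, as were cells in which Col1a1 or Col2a1 reached 1% of UMIs. These limits selected 1095 of the 46420 cells that passed quality control, or 2.36%. The levels of those genes chose the cells, so they are given as a description without a test.

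Monocytes are made in bone marrow, and before and around birth also in the liver and spleen, from progenitors that first make the granule proteases shared with neutrophils. Classical monocytes carry the surface protein encoded by Ly6c2 and leave the marrow through the chemokine receptor CCR2, whereas non-classical monocytes patrol the vessel wall and depend on the transcription factor NR4A1. In bone they can give rise to macrophages and dendritic cells, and they share the receptor of the growth factor CSF1 with the osteoclast lineage.

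The suspensions came from parietal bones of pups 4 to 5 days old and of strain B6.129(FVB)-Col1a2tm1Mcbr/J, with 4 wild type (WT) libraries and 4 heterozygous (Het) ones. The Het pups carried 1 copy of G610C, an allele of Col1a2 in which a glycine of the collagen α2(I) chain is replaced and which serves as a model of osteogenesis imperfecta. Minced bone was digested with bacterial collagenase, no cells were sorted, and several animals of 1 genotype were pooled for each library, so animals, litters and sexes are not separated and p-values measure the spread between libraries. WT S1 and S2 and Het S3 and S4 were made with version 3 of the droplet kit and an earlier release of the counting software. WT S5 and S6 and Het S7 and S8 were made with version 3.1 and a later release. The paper mentions independent experiments with these bones. Kit, software and any difference in pups, preparation or sequencing run therefore cannot be told apart. The allele was in all cells of the Het pups, and monocytes were not a cell type that the experiment set out to enrich.

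WT S1 and S2 stood apart from the other libraries. Haematopoietic cells made up 54.4% and 45.9% of their cells against 3.01% to 9.14% in the other 6 libraries, and they held 830 of the 1095 monocytes (75.8%). The 8 libraries held 30480239 to 85162035 UMIs, the monocyte sums 200558 (Het S8) to 3771237 UMIs (WT S1), and the median monocyte between 3672.5 (Het S4) and 12118 UMIs (Het S7). Over the 28 pairs of libraries 535 cell barcodes were shared, none of them between monocytes of both libraries, and 20 monocytes carried a barcode that was also a cell of another library. Doublets were kept, and 50 monocytes were among the cells nearest to simulated doublets.

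The genes of the rule marked different numbers of the cells. Plac8, which encodes a small cysteine-rich protein of myeloid progenitors and monocytes, was detected in 96.3% of monocytes, Ccr2 in 95.3%, Ms4a6c, a membrane-spanning four-domain family member, in 93.5%, Csf1r, the CSF1 receptor, in 78.6%, Ly6c2 in 76.6% and F13a1, the catalytic subunit of coagulation factor XIII, in 66.7%. In 15544 cartilage cells (Col2a1 at 1% of UMIs or more) the shares were 0.528%, 0.257%, 0.894%, 2.06%, 0.103% and 22.1% in the same order. The median depth of these cartilage cells per library lay between 1060 (WT S5) and 18040 UMIs (WT S6). F13a1 was thus read in many cartilage cells too, so they give no background for this gene, and the other 5 genes were read in few. All 6 genes were detected in 493 monocytes, 5 in 309, 4 in 171 and 3 in 122, and the limit on Ly6c2 or Ccr2 was met by both genes in 635 cells, by Ccr2 alone in 358 and by Ly6c2 alone in 102.

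Levels are given as the UMIs of a gene per 1000000 UMIs of all monocytes of a library (CPM), not divided by transcript length. Ly6c2 (ENSMUSG00000022584, chr15:75108158-75111970, build GRCm38) stood at 1156 CPM in WT S1, 872 in WT S2, 366 in WT S5, 413 in WT S6, 470.3 in Het S3, 769 in Het S4, 229 in Het S7 and 254 in Het S8. Its level was higher in each of the 4 libraries of kit version 3 than in any of kit version 3.1. Reads of Ly6c2 and of its near-identical neighbour Ly6c1 may be exchanged by the counting, and Ly6c1 was listed at 0 to 9.5 CPM. Ccr2 (ENSMUSG00000049103, chr9:124101950-124113557) stood at 1041 CPM in WT S1, 754 in WT S2, 953 in WT S5, 1125 in WT S6, 993 in Het S3, 1002 in Het S4, 1050.3 in Het S7 and 748 in Het S8, with no order by genotype or kit.

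Csf1r (ENSMUSG00000024621) ran from 226 (WT S6) to 359 CPM (Het S8) and Ms4a6c (ENSMUSG00000079419, chr19:11469366-11482192) from 563 (Het S7) to 817 CPM (Het S3), and neither separated the groups. F13a1 (ENSMUSG00000039109, chr13:36867178-37050244) ran from 257 (Het S3) to 627 CPM (WT S6) and Plac8 (ENSMUSG00000029322, chr5:100553725-100572245) from 1147 (Het S8) to 2615 CPM (WT S2). Plac8 followed Ly6c2 in being higher in every library of kit version 3. Macrophages of the same libraries (C1qa and C1qb each at 2 UMIs or more, 1193 cells) had means of 4.07 CPM of Ly6c2, 95.8 of Ccr2 and 31.9 of Plac8, but 978 of Csf1r and 769 of F13a1. Cells of the neutrophil lineage (Ngp or Camp at 2 UMIs or more, 1809 cells) had 544 CPM of Ly6c2 over the 5 libraries with at least 10 of them.

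The cells just inside and just outside the limits of the rule differed. The 91 monocytes with exactly 2 UMIs of the higher of Ly6c2 and Ccr2 had a pooled Lyz2 level of 9425 CPM, the 1004 with more had 16182 CPM, and the 79 cells left out with 1 UMI had 5120 CPM. The 122 monocytes with 3 of the 6 genes detected had 2759 CPM of Lyz2 against 679 CPM in the 103 cells left out with 2 genes. The 125 cells left out by C1qa or C1qb alone had 1251 CPM of C1qc, and the 75 left out by Ngp or Camp alone had 63008 CPM of S100a8, against 2.71 and 4410 CPM in those 1004 monocytes.

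Markers outside the rule were read as well. Lyz2, which encodes lysozyme M of monocytes, macrophages and neutrophils, stood at 17411 CPM in WT S1, 15508 in WT S2, 11948 in WT S5, 15579 in WT S6, 13529 in Het S3, 13999 in Het S4, 8559.6 in Het S7 and 10057 in Het S8. Every library was above its macrophages (mean 2620.3 CPM) and above its remaining cells (38.0 CPM). Of the 20 genes of the list for classical monocytes, which holds no gene of the rule, 15 were higher than in macrophages in all 8 libraries, as were 767 of the 5005 genes with enough counts to be tested (15.3%). Since the rule sets the cells apart from macrophages, this is a description. Among the 15 were Ifitm6, from 204 (Het S8) to 614 CPM (WT S1), and Vcan, the proteoglycan versican, from 94.6 (WT S2) to 532 CPM (WT S6). Fn1, fibronectin, ran from 663 (Het S8) to 1155 CPM (WT S1) and was above macrophages in all 8 libraries as well, but the remaining cells had a mean of 2025 CPM.

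Of 15 genes of the non-classical programme 4 were above macrophages in all 8 libraries, and 13 had a mean of at least 20 CPM. Nr4a1 ran from 71.2 (Het S3) to 354 CPM (WT S5) and Itgal, the α chain of the integrin LFA-1, from 106 (WT S5) to 218 CPM (Het S7), both above macrophages in all 8 libraries. Cx3cr1, the fractalkine receptor, ran from 119 (Het S3) to 294 CPM (Het S8) and was below macrophages (mean 519.6 CPM) in all 8. Treml4 ran from 21.5 (WT S2) to 61.1 CPM (WT S6) and Ace, the angiotensin-converting enzyme, from 15.0 (Het S8) to 30.01 CPM (Het S7).

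Among the transcription factors that direct myeloid fate, Spi1 (PU.1) stood at 499 CPM in WT S1, 480 in WT S2, 459.9 in WT S5, 489 in WT S6, 599 in Het S3, 412 in Het S4, 555 in Het S7 and 618 in Het S8. This was a narrow range, close to that of macrophages (460.3 CPM) and far above the remaining cells (3.48 CPM). Irf8, which directs monocytes away from the neutrophil fate, ran from 81.7 (WT S5) to 439 CPM (WT S2), against 118 CPM in macrophages and 1.52 CPM in the neutrophil lineage. Klf4, a factor needed for monocyte maturation, ran from 135 (Het S7) to 501 CPM (WT S6), and Cebpb from 484 (Het S4) to 1287 CPM (Het S7).

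Transcripts of other cell types were also read in the monocytes. At least 3 markers of 1 other cell type were detected in 1021 of the 1095 monocytes, and in 639 of them at 2 UMIs or more each. The summed level of 12 erythroid genes ran from 59.8 (Het S8) to 25032 CPM (WT S2), and that of 12 osteoblast genes from 463 (WT S2) to 3035 CPM (Het S3). The summed level of 12 T and NK cell genes ran from 3.75 to 154 CPM (WT S2), with Cd3e at most at 0.80 CPM, and Camp, a rule gene, was at 0 in 6 libraries. Haemoglobin Hbb-bs ran from 24.9 (Het S8) to 13430.5 CPM (WT S2), with 3483 CPM or more in the 4 libraries of kit version 3 and 93.8 CPM or less in the 4 of version 3.1. S100a8 of neutrophils ran from 252 (Het S3) to 5711 CPM (WT S1), against 90242 CPM in the neutrophil lineage. Lyz2 was under 5 UMIs in 106 monocytes (9.68%) and absent in 46, and 24 (2.19%) had 5 or more UMIs over 10 endothelial genes, so not every cell chosen by the rule carried the full programme.

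**Figure D1:**
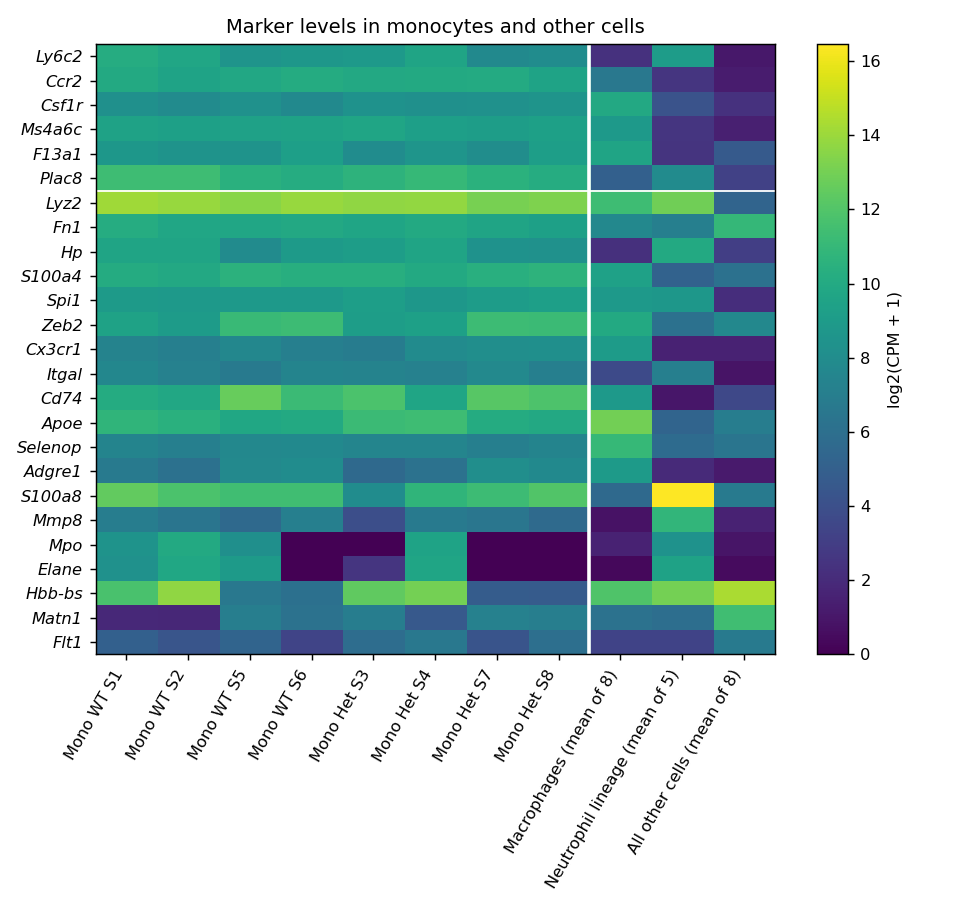
Levels of 25 genes as log2(CPM + 1), in colour, in the monocytes of each library (left of the white vertical line) and as means in macrophages, the neutrophil lineage and all other cells. The first 6 rows are the genes of the rule, Lyz2 (8560 to 17411 CPM in monocytes) is bright in every monocyte library, and Hbb-bs divides the libraries by kit version.

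Against macrophages, the monocytes of every library were far higher in Hp and S100a8 and far lower in C1qc and Pf4. By the rule of the largest smallest ratio within a library, the leading genes were Hp (haptoglobin, mean 539 ± 224 CPM in monocytes against 3.96 ± 5.61 in macrophages, SD, n = 8), S100a8 (2918 ± 1620 against 47.8 ± 93.1), Mcemp1 (246 ± 63.7 against 2.82 ± 3.22), Stfa1 (749.7 ± 598 against 18.7 ± 34.6) and F10, coagulation factor X (148 ± 66.5 against 1.41 ± 1.17). The smallest of the 8 ratios of Hp was 5.06 and that of F10 3.73 on the log2(CPM + 5) scale. Macrophages were higher in C1qc (complement C1q, 2455 ± 688 CPM against 2.40 ± 2.33 in monocytes), Pf4 (3486 ± 988 against 25.4 ± 28.4), Fcrls (619.5 ± 215 against 6.16 ± 8.27), Ccl12 (243 ± 80.2 against 1.35 ± 2.70) and Gas6 (398 ± 209 against 8.20 ± 8.18). The rule excluded C1qa and C1qb, partners of C1qc, so the value of C1qc partly restates the selection. Of 4093 genes compared, 140 were at least 2-fold higher and 148 at least 2-fold lower in monocytes in all 8 libraries.

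Against the neutrophil lineage, compared in 5 libraries with at least 10 cells of both types (WT S1, S2, S5 and S6, Het S4), the genes with the largest smallest ratio were as follows. Cd74, the invariant chain of MHC class II, had a mean of 2319 ± 2310 CPM in monocytes against 0.996 ± 1.40 in the neutrophil lineage (SD, n = 5), H2-Ab1 591 ± 422 against 0.366 ± 0.564, H2-Aa 814 ± 847 against 2.33 ± 3.27, Ctss (cathepsin S) 985 ± 115 against 11.3 ± 11.8 and Pld4 391 ± 52.8 against 3.81 ± 4.14. Genes of neutrophil secondary granules and their neighbours were lower in monocytes, led by Ltf (lactoferrin, 2.31 ± 3.37 CPM against 6141 ± 1133), BC100530, Retnlg, Stfa2 and Lcn2. Ltf and Lcn2 belong to the same granules as Ngp and Camp, which the rule excluded. All of these values compare groups defined by their genes and are descriptions.

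Monocytes were not uniform, and a few of them carried the granule genes of progenitors. Each cell was thinned to 1000 UMIs (1092 of 1095 monocytes had as many), and a cell with at least 3 UMIs over Mpo (myeloperoxidase), Elane (neutrophil elastase), Prtn3 (proteinase 3), Ctsg (cathepsin G) and Ms4a3 was counted as a granule-gene cell. There were 49 of these (4.49%), against 1 of 1182 macrophages (0.0846%), 71 of 1806 cells of the neutrophil lineage (2.06% in WT S1, 6.30% in WT S2 and 8.18% in Het S4) and 1 of 12452 cartilage cells (0.00803%). The cells lay in WT S1 (14 of 477, 2.94%), WT S2 (27 of 351, 7.69%), Het S4 (7 of 113, 6.19%) and WT S5 (1 of 46, 2.17%). None was found among 32 cells of Het S3, 34 of WT S6, 21 of Het S7 and 18 of Het S8, where a count of 0 allows shares of up to 9.38%, 8.82%, 14.3% and 16.7% by the limit of 3 counts, and of up to 10.9%, 10.3%, 16.1% and 18.5% by the exact 95% binomial interval. Without thinning the shares ran from 0 (Het S3, S7 and S8) to 12.3% (WT S2).

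The promoters of the granule genes are shown because these genes define the granule-gene cells. They are the bases before the start site, up to 250 and cut at the first annotated exon, from RefSeq on GRCm38.p6, printed 5′ to 3′ along the gene, and the capitals mark GAGGAA, a core bound by PU.1-type ETS factors, searched on both strands. Mpo lies at chr11:87793534-87793580 (+), Elane at chr10:79886062-79886246 (+), Prtn3 at chr10:79879417-79879613 (+) and Ctsg at chr14:56102575-56102824 (−).
Mpo: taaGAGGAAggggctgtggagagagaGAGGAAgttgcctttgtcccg
Elane: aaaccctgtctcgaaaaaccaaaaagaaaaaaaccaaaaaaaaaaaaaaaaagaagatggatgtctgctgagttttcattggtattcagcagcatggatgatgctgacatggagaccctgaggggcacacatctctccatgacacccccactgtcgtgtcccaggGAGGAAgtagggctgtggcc
Prtn3: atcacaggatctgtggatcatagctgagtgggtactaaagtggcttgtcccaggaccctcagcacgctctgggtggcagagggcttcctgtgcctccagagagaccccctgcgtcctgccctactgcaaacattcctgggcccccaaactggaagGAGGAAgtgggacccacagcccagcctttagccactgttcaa
Ctsg: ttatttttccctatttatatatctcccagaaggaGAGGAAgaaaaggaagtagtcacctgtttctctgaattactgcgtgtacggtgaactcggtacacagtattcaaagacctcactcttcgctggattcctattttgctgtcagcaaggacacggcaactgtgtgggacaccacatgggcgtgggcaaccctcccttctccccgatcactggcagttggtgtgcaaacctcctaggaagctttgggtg
The uncut windows of 250 bases held 2 such letter runs in Mpo and 1 each in Elane, Prtn3 and Ctsg, and none in Ms4a3. The run stood in 6252 of 27025 promoters of that length (23.1%), and TTNNGCAA, a C/EBP-type core present in 9.55% of them, stood in none of the 5. A match is a description of the letters, and binding was not measured.

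Beyond the genes that chose them, the granule-gene cells differed from the other monocytes of the same libraries (WT S1 and S2, Het S4, which had at least 5 of these cells). Prss57, a further serine protease, had a mean of 231 CPM against 0.509, Myb, a transcription factor of progenitors, 345 against 5.02, Cst7 189 against 2.29, Serpinb1a, an inhibitor of the granule proteases, 442 against 21.3 and Nkg7 391 against 9.63. The smallest of the 3 ratios lay between 3.86 (Nkg7) and 5.20 (Prss57) on the log2 scale. Cd74, H2-Aa, H2-Eb1 and Pla2g7 were at 0 in these cells, against 1135, 428, 326 and 270.04 CPM in the others, and the chemokine Ccl6 was at 4.04 against 582 CPM.

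The genes of the rule split within this subset, whose leading genes are not those of mature monocytes. Ly6c2 (973 against 944 CPM) and Plac8 (2866 against 2321 CPM) were near the other monocytes, whereas Ccr2 (81.8 against 1085), Csf1r (34.4 against 332), Lyz2 (1029 against 18406) and Fn1 (50 against 1189) were lower. Of the fate factors, Gfi1 (35.5 CPM against 0) and Cebpe (172 against 19.3), both of granulocyte development, were higher, Kit, the stem cell factor receptor, was at 63.8 against 6.47, and Klf4 (65.5 against 252), Spi1 (253 against 504) and Irf8 (207 against 386) were lower. The cells were chosen by their genes, so these profiles and those of the subsets that follow are descriptions without a test.

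Cycling monocytes were counted in the same way, as those with at least 3 UMIs over 23 genes of the G2 and M phases. They were 182 of 1092 (16.7%), and the order against other cell types at the same depth differed between libraries. The shares were 16.8% in WT S1, 20.5% in WT S2, 8.70% in WT S5, 2.94% in WT S6, 15.6% in Het S3, 15.9% in Het S4, 4.76% in Het S7 and 5.56% in Het S8. All 4 libraries of kit version 3 were thus higher than all 4 of version 3.1, which did not hold without thinning, where Het S7 had 38.1%, WT S2 41.0% and the other 6 libraries 11.1% to 30.7%, nor at a limit of 5 UMIs in thinned cells, where Het S3 had 6.25% and WT S5 6.52%. Macrophages were at 5.29%, 12.5%, 9.91% and 6.80% in WT S1, WT S2, Het S3 and Het S4, below the monocytes of each, and at 19.6%, 20%, 21.8% and 22.6% in WT S5, WT S6, Het S7 and Het S8, above them. The neutrophil lineage was at 6.18% in WT S1, 12.2% in WT S2, 2.22% in WT S5 and 0 in WT S6, below the monocytes of each, and at 18.2% in Het S4, above them. Cartilage cells were at 3.89% (Het S7) to 11.3% (WT S2), below the monocytes of the same library except in WT S6, where they were at 5.58%. In the 4 libraries with enough such cells, Ly6c2 was at 1138 CPM in the cycling cells against 722 in the others and Csf1r at 152 against 347. Among the genes lower in cycling cells were Tppp3 (5.64 against 61.7 CPM), Gngt2, Metrnl, Sirpb1c and Adgre4, and the leading higher gene was Prc1, a protein of the mitotic spindle midzone (316 against 19.7 CPM).

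MHC class II monocytes, with at least 3 UMIs over H2-Aa, H2-Ab1, H2-Eb1 and Cd74, numbered 104 (9.52%), against 51 of 1182 macrophages (4.31%), 0 of 1806 cells of the neutrophil lineage and 3 of 12452 cartilage cells (0.0241%). The shares were 9.01% in WT S1, 6.84% in WT S2, 21.7% in WT S5, 8.82% in WT S6, 25.0% in Het S3, 7.08% in Het S4, 28.6% in Het S7 and 11.1% in Het S8. High and low shares thus stood in both genotypes. Macrophages were below the monocytes of the same library except in WT S2, where they were at 10.9%. By the stricter rule (at least 4 of the 6 genes and 3 UMIs of Ly6c2 or Ccr2) the shares were lower in all 8 libraries, with 0 of 82 in Het S4, 0 of 15 in Het S8, 12% in Het S3, 11.8% in WT S5 and 3.33% in WT S6. The 122 monocytes with 3 of the 6 genes had 6324 CPM of Cd74. Without thinning the shares of monocytes ran from 11.4% (WT S2) to 42.9% (Het S7). No monocyte met both the granule-gene and the MHC class II limit, whereas 20 met the MHC class II and the cycling limit and 15 the granule-gene and the cycling limit. The other 792 (72.5%) met none.

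In the 6 libraries with at least 5 MHC class II monocytes (WT S1, S2 and S5, Het S3, S4 and S7), these cells were higher in Ciita, the master regulator of class II genes (245 CPM against 0.440 in the other monocytes), in Cd209a, a C-type lectin of monocyte-derived dendritic cells (334 against 5.78), in H2-DMb1 (600.5 against 37.3), Klrk1 (85.1 against 4.32) and H2-DMa (709.5 against 147). They were lower in F10 (4.65 against 157 CPM), Mgst1 (8.38 against 254), Hp (37.0 against 690.4), Gstm1 (1.19 against 76.4) and Ccdc125 (3.01 against 63.0). Ccr2 (960.3 against 988 CPM) and Ms4a6c (613 against 688) were near the others, while Ly6c2 (33.9 against 762), F13a1 (50.6 against 411) and Lyz2 (4643 against 15529.9) were lower. The name monocyte stands here for the rule alone, and whether these cells are dendritic cells was not tested. Cd209a reached 2 UMIs in 42 monocytes, and its level over all monocytes ran from 8.84 (Het S4) to 285 CPM (Het S3).

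**Figure D2:**
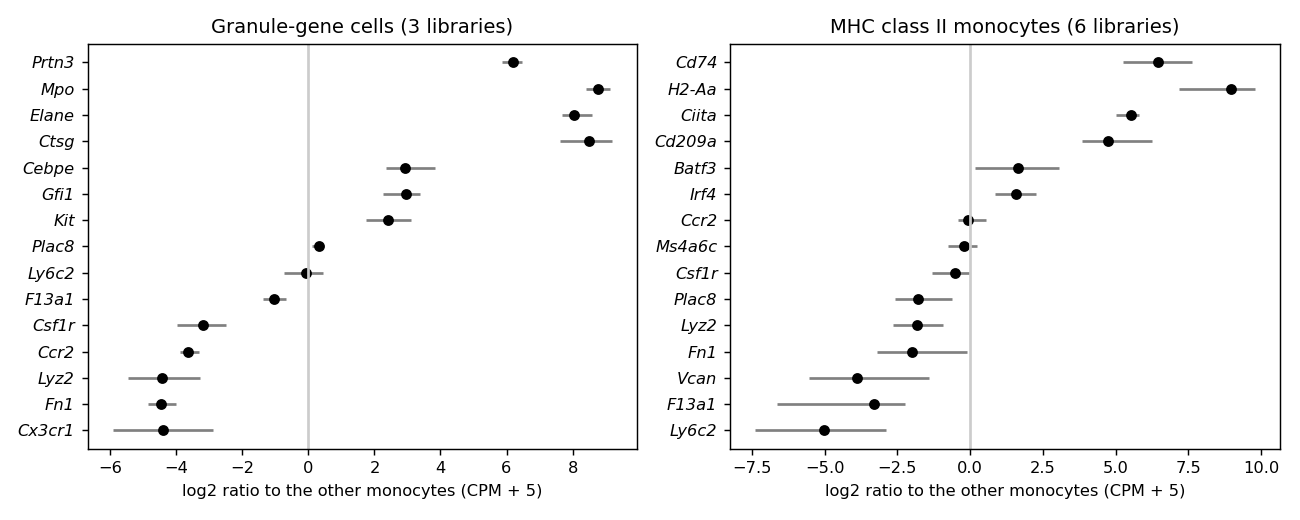
Log2 ratio (CPM + 5) of granule-gene cells (left, 3 libraries) and MHC class II monocytes (right, 6 libraries) to the other monocytes of the same library, with the mean over libraries as a point and the lowest to highest library as a line. Ly6c2 and Plac8 lie near 0 on the left with Ccr2 and Csf1r below, and Ccr2 and Ms4a6c lie near 0 on the right with Ly6c2 lowest.

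**Figure D3:**
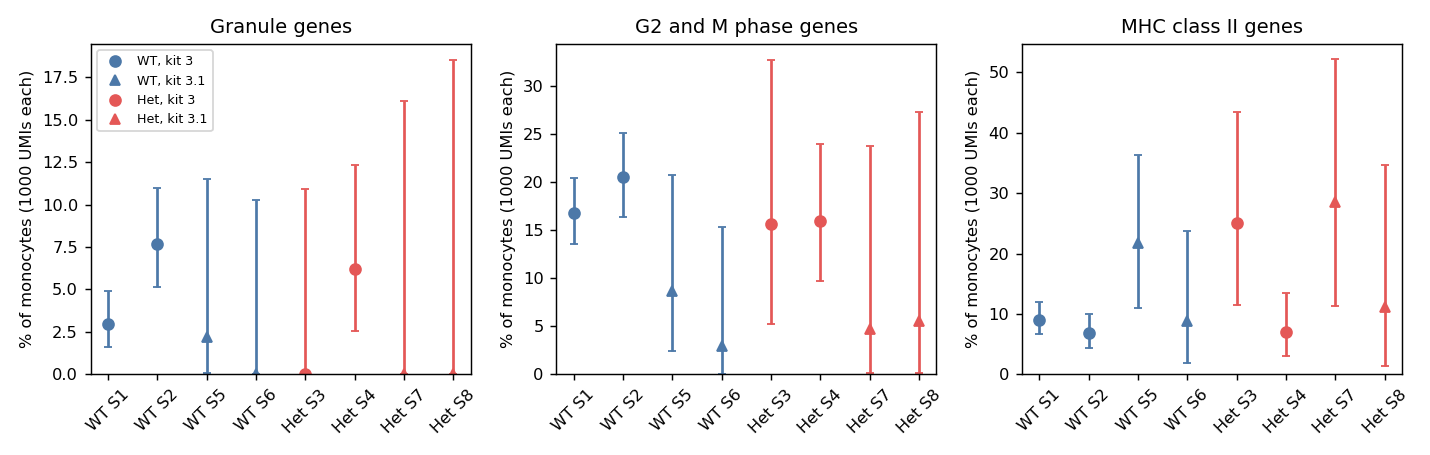
Share of monocytes, thinned to 1000 UMIs each, that met the granule-gene, the G2 and M phase and the MHC class II limit, in percent per library, with exact 95% binomial intervals as bars, colour for genotype and symbol for kit version. The cycling share is higher in every library of kit version 3 (circles, 15.6% to 20.5%) than in any of version 3.1 (triangles, 2.94% to 8.70%).

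Monocytes were most frequent in WT S1 and S2, the libraries with the largest share of haematopoietic cells. Monocytes were 10.0% of cells in WT S1 (479 of 4773, exact 95% binomial interval 9.20% to 10.9%), 7.38% in WT S2 (351 of 4756, 6.65% to 8.16%), 0.405% in WT S5 (46 of 11368), 0.708% in WT S6 (34 of 4800), 0.940% in Het S3 (32 of 3405), 1.52% in Het S4 (114 of 7498), 0.396% in Het S7 (21 of 5305) and 0.399% in Het S8 (18 of 4515). Both genotypes had their higher shares with kit version 3. The WT mean was 4.63 ± 4.83% and the Het mean 0.814 ± 0.536% (SD, n = 4 each), a difference of −3.82 percentage points (exact permutation test, two-sided, p = 0.286, over assignments that ignore kit version). Within each kit version both Het libraries lay below both WT libraries. Within kit version 3 the difference was −7.48 points, and within version 3.1 it was −0.159. Intervals cover counting error only.

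Of haematopoietic cells, monocytes made up 18.5% in WT S1, 16.1% in WT S2, 9.11% in WT S5, 9.60% in WT S6, 13.9% in Het S3, 16.6% in Het S4, 9.25% in Het S7 and 13.2% in Het S8. On this denominator WT S1 still had the highest share, and the genotypes overlapped. The WT mean was 13.3 ± 4.67% and the Het mean 13.2 ± 3.05% (SD, n = 4 each, difference −0.0673 points, exact permutation p = 1), with −2.02 points within kit version 3 and 1.89 points within version 3.1. Every library of kit version 3 was above every library of version 3.1 (difference −5.96 points, exact permutation p = 0.0286, the smallest that 4 against 4 libraries can give).

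**Figure D4:**
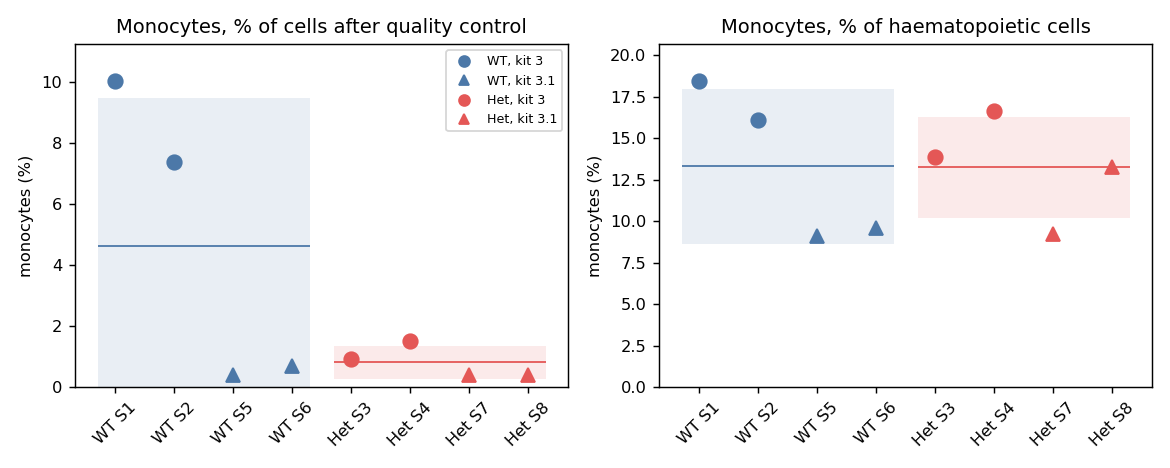
Monocytes in percent of cells after quality control (left) and of haematopoietic cells (right), 1 point per library, with the mean (line) and SD (band) of each genotype. WT S1 and S2 stand at 10.0% and 7.38% on the left, and on the right all libraries lie between 9.11% and 18.5%.

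None of the subset shares passed the same test between genotypes, which ignores kit version. The granule-gene share was 3.20 ± 3.24% in WT and 1.55 ± 3.1% in Het (SD, n = 4 each, exact permutation p = 0.543), the cycling share 12.2 ± 7.92% and 10.5 ± 6.14% (exact permutation p = 0.686), and the MHC class II share 11.6 ± 6.83% and 17.9 ± 10.4% (exact permutation p = 0.229). Within kit version 3 the MHC class II share was 8.11 points higher in Het and within version 3.1 4.56 points higher. By the stricter rule the shares in version 3 were 5.84% in WT S1, 5.32% in WT S2, 12% in Het S3 and 0 in Het S4, so the genotypes overlapped. The cycling share changed by −11.7 points from kit version 3 to 3.1 (exact permutation p = 0.0286, the smallest possible). At the limit of 5 UMIs the change was −5.54 points (exact permutation p = 0.0571) and without thinning −11.2 points (exact permutation p = 0.171). The number of cells of the neutrophil lineage was 926 in WT S1, 683 in WT S2 and 110 in Het S4 of 1809 in all.

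The summed UMI counts of monocytes were compared between Het and WT with edgeR's quasi-likelihood test with kit version in the model. Of 5005 genes tested, 3 (0.0599%) passed an adjusted p of 0.05, all higher in Het. Levels of genes in the tests of genotype and kit are scaled by the trimmed mean of M-values (TMM), and those given as unscaled CPM are not. Col4a1 (ENSMUSG00000031502, chr8:11198423-11312826), the α1 chain of type IV collagen of basement membranes, stood at 93.3 CPM in WT S1, 126 in WT S2, 3.29 in WT S5, 6.43 in WT S6, 1099.7 in Het S3, 718 in Het S4, 0 in Het S7 and 20.5 in Het S8. The high values were those of Het S3 and S4, and the libraries of kit version 3.1 were low in both genotypes. The log2 difference of Het to WT was 2.95 (SE 0.33, edgeR adjusted p = 0.00464, DESeq2 adjusted p = 0.182), 3.03 within kit version 3 and 0.85 within version 3.1. No gene was called by edgeR when WT S1 or WT S2 was left out (286 and 241 genes at an unadjusted p under 0.05), and 1 when Het S4 was.

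Col4a2 (ENSMUSG00000031503, chr8:11312805-11449287), the partner chain from the neighbouring gene, stood at 49.8 CPM in WT S1, 79.1 in WT S2, 9.86 in WT S5, 9.64 in WT S6, 392 in Het S3, 333 in Het S4, 7.78 in Het S7 and 15.4 in Het S8. It had the same pattern, with a log2 difference of 2.32 (SE 0.29, edgeR adjusted p = 0.00991), 2.48 within kit version 3 and 0.18 within version 3.1. Itga6 (ENSMUSG00000027111, chr2:71745616-71858416), the α6 integrin chain of laminin receptors, stood at 22.96 CPM in WT S1, 20.9 in WT S2, 9.86 in WT S5, 12.9 in WT S6, 54.4 in Het S3, 82.7 in Het S4, 42.8 in Het S7 and 61.5 in Het S8. Here all 4 Het libraries were above all 4 WT libraries (log2 difference 1.82, SE 0.25, edgeR adjusted p = 0.0161), 1.73 within kit version 3 and 2.16 within version 3.1.

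In Het S3 and S4 most Col4a1 and Itga6 transcripts came from 1 cell each. In Het S3 193 of 202 Col4a1 UMIs (95.5%) lay in 1 cell, and in Het S4 283 of 365 (77.5%). For Itga6 it was 8 of 10 UMIs in Het S3, 28 of 42 in Het S4 and 9 of 12 in Het S8. The 24 monocytes with 5 or more endothelial UMIs held 82.5% of the Col4a1, 77.9% of the Col4a2 and 41.3% of the Itga6 UMIs, and the summed level of the 11 endothelial genes in unscaled CPM was 173 and 169 CPM in WT S1 and S2, 57.5 and 42.8 in WT S5 and S6, 627 and 647 in Het S3 and S4, and 52.5 and 64.8 in Het S7 and S8.

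In the other monocytes, in unscaled CPM, Col4a1 was at 15.3 ± 12.5 CPM in WT and 27.2 ± 21.5 in Het, Col4a2 at 12.5 ± 4.31 and 19.1 ± 9.88, and Itga6 at 11.2 ± 1.63 and 33.4 ± 21.9 (SD, n = 4 each). The genotypes overlapped in Itga6, with 9.08 to 12.7 CPM in WT and 9.5 to 59.8 CPM in Het. With those 24 cells left out, a choice made after the values were seen, no gene passed (lowest edgeR adjusted p = 0.175, 280 genes at an unadjusted p under 0.05), and the 3 genes fell under the filter on low counts. In macrophages the log2 differences of Het to WT were −0.22 for Col4a1, −0.10 for Col4a2 and 0.39 for Itga6.

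**Figure D5:**
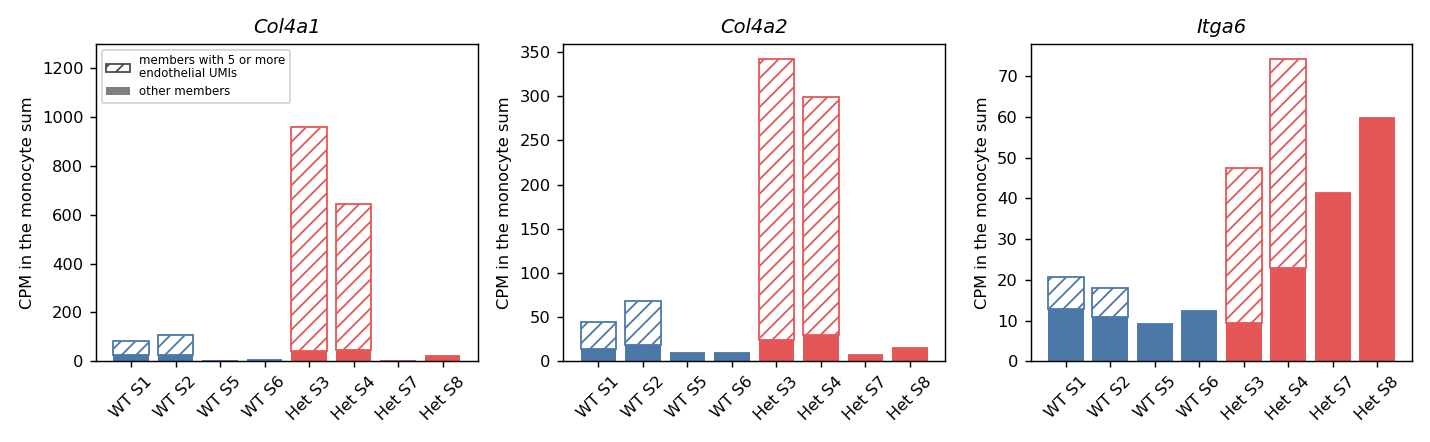
Level of Col4a1, Col4a2 and Itga6 in unscaled CPM of the monocyte sum of each library, divided into the part from monocytes with 5 or more endothelial UMIs (hatched) and from the other monocytes (filled), blue for WT and red for Het. The bars of Het S3 and S4 are mostly hatched for Col4a1 and Col4a2, and those of Het S7 and S8 for Itga6 are filled.

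The remaining genes with the lowest p did not pass the adjustment. Among those higher in Het were Tcf4, a basic helix-loop-helix factor (log2 1.10, SE 0.19, edgeR adjusted p = 0.0999), Basp1 (1.5), Igfbp7 (2.87), Dok2 (1.39), Lgmn, the lysosomal protease legumain (0.88), Elk3 (0.83) and F11r, a junctional adhesion molecule (1.31). Tcf4 stood at 103 CPM in WT S1, 139.6 in WT S2, 135 in WT S5, 112 in WT S6, 381 in Het S3, 246 in Het S4, 206 in Het S7 and 210.2 in Het S8, with no overlap of the genotypes. The monocytes with endothelial UMIs held 55 of its 70 UMIs in Het S3 and 69 of 125 in Het S4. In the other monocytes it was at 64.4 to 124 unscaled CPM in WT, 71.3 in Het S3, 99.0 in Het S4 and 199 in each of Het S7 and S8, so the genotypes overlapped (log2 0.54, edgeR adjusted p = 0.789). The log2 difference of Igfbp7 was 3.30 within kit version 3 and −1.66 within version 3.1, and the 24 monocytes with endothelial UMIs held 75.9% of its UMIs. Levels did not overlap between genotypes for 76 of the 5005 genes (1.52%), which included Tcf4, Elk3, Cited2 and Itga6.

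With DESeq2, Tcf4 (adjusted p = 0.00363), Basp1 (0.00625), Dok2 (0.0137) and Lgmn (0.0170) passed. No gene lower in Het passed the adjustment in edgeR, and the lowest p among them belonged to Ccl3, the chemokine MIP-1α. It stood at 86.0 CPM in WT S1, 119 in WT S2, 529 in WT S5, 549.6 in WT S6, 49.0 in Het S3, 57.1 in Het S4, 206 in Het S7 and 292 in Het S8. Within each kit version both Het libraries were below both WT libraries (log2 difference −1.04, SE 0.17, edgeR adjusted p = 0.0778, DESeq2 adjusted p = 0.00363), and the difference between the kits was larger than that between the genotypes. Cited2, a transcriptional co-regulator, stood at 135 CPM in WT S1, 187 in WT S2, 197 in WT S5, 251 in WT S6, 65.3 in Het S3, 110.2 in Het S4, 121 in Het S7 and 66.7 in Het S8, without overlap of the genotypes (log2 −0.97, edgeR adjusted p = 0.341). The others were Wwox (−1.5), Fabp5 (−0.83), Gadd45b (−0.94), Mgst1 (−0.90), Nfkbiz (−0.81), Tmcc1 (−0.65), Lbr (−0.58) and Lyz2 (−0.43), with adjusted p of 0.315 to 0.538.

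Over all genes 188 (3.76%) were higher and 162 (3.24%) lower in Het at an unadjusted p under 0.05, and the median log2 difference was 0.0016. Of the genes of the rule, given as a description without a test, Ly6c2 had a log2 difference of −0.72, Ccr2 −0.04, Csf1r 0.24, Ms4a6c −0.08, F13a1 −0.25 and Plac8 −0.27. None of the 18 tested genes for classical monocytes was called, with 2 lower at an unadjusted p under 0.05 and a list median of −0.25. Of the 8 tested genes for non-classical monocytes 1 was higher at an unadjusted p under 0.05, with a median of 0.06.

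Lists of monocyte functions held no gene past the adjusted limit, and their counts past the unadjusted one stand against 3.76% of all genes higher and 3.24% lower. Targets of NF-κB, the factor of inflammatory activation, had 0 higher and 4 lower of 16 (median −0.37), and immediate early genes, which rise during tissue dissociation, 0 higher and 3 lower of 22 (median −0.19), with Fos at −0.49, Junb at −0.48 and Ier2 at −0.36. MHC class II genes had a median of 0.52 with 0 of 6 past the limit. Chemokine receptors and migration genes had 3 higher and 1 lower of 15 (median 0.02), growth factor receptors 1 and 1 of 17 (median 0.08), Fc receptors and adaptors 1 and 1 of 18 (median 0.01), and genes of the NADPH oxidase and lysosome 2 and 2 of 19 (median 0.03). Interferon-response genes had 0 of 14 past the limit (median −0.12).

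Stress pathways were counted because the study asks how mutant procollagen stresses the cells that make it, and monocytes served as cells of the same bones outside that lineage. Genes of the integrated stress response had 0 of 12 past the unadjusted limit (median 0.10) and those of the mitochondrial unfolded protein response 0 of 7 (median 0.18). Of 18 genes of the endoplasmic reticulum (ER) response 3 were higher and 0 lower past the unadjusted limit, against 3.76% and 3.24% of all genes, and 14 had a positive difference, against 2512 of the 5005 genes. The median was 0.21, with Creld2 at 0.77, Pdia4 at 0.69 and Hspa5, the ER chaperone BiP, at 0.32. Hspa5 stood at 496 CPM in WT S1, 568 in WT S2, 453 in WT S5, 466 in WT S6, 506 in Het S3, 663 in Het S4, 595 in Het S7 and 723 in Het S8, and the genotypes overlapped. None of these genes passed the adjusted limit.

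Cartilage genes were also higher in Het monocytes at the unadjusted limit, and none passed the adjusted one. Of 8 tested cartilage genes 6 were higher in Het monocytes at an unadjusted p under 0.05 (median 1.85), against 3.76% of all genes tested. The summed level of the 12 cartilage genes in unscaled CPM was 49.3 CPM in WT S1, 30.5 in WT S2, 1171 in WT S5, 718 in WT S6, 1838 in Het S3, 256 in Het S4, 1080.3 in Het S7 and 783 in Het S8. WT S1 and S2 were low, and they held 102 and 151 cartilage cells of at least 1000 UMIs against 761 to 3285 in the other libraries. The part of this cartilage RNA in the other differences was not tested.

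Monocytes of libraries of kit version 3 and of version 3.1 lay apart far more than those of WT and Het libraries. The first principal component, on which the kit versions lay apart, held 63.3% of the variance between libraries, and 1224 genes (24.5%) were higher and 867 (17.3%) lower in version 3.1 at an edgeR adjusted p under 0.05. Zeb2, a factor of myeloid maturation, stood at 792 CPM in WT S1, 613 in WT S2, 2510.5 in WT S5, 2642 in WT S6, 669.6 in Het S3, 726 in Het S4, 2557 in Het S7 and 2482 in Het S8 (log2 1.86). Nfkbiz, an inducible regulator of NF-κB targets, stood at 55.9 CPM in WT S1, 50 in WT S2, 427 in WT S5, 302 in WT S6, 21.8 in Het S3, 43.3 in Het S4, 222 in Het S7 and 144 in Het S8 (log2 2.65), as a further gene whose kit versions did not overlap. Of the tested NF-κB targets 12 of 16 were higher and 1 lower (median 1.90), and of immediate early genes 13 of 22 were higher and 0 lower (median 0.85). Cd44 (2.04), Ccl3 (2.33), Lyn (1.70), Cebpb (0.97) and Cd74 (1.41) were also higher in version 3.1.

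In the other direction, 12 of 18 tested G2 and M phase genes were lower with kit version 3.1 and 0 higher (median −1.25), among them Mki67 (−1.97) and Top2a (−1.33), and 6 of 12 genes of the S phase were lower. Of 8 tested progenitor and granule genes 7 were lower (median −3.22), with Mpo at −3.20 and Prtn3 at −3.42. The kits overlapped in both, since Het S3 was at 0 CPM of Mpo and 10.9 of Prtn3 and WT S5 at 322 and 368, and the high values were those of WT S1, WT S2 and Het S4. Of the genes of the rule, Ly6c2 had a log2 difference between the kits of −1.48 and Plac8 of −0.86, which are descriptions without a test. All 4 tested erythroid genes were lower (median −7.29), which is the direction of the haemoglobin RNA given above. Kit version, counting software and any difference in pups, preparation or sequencing run between these libraries cannot be told apart here.

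The difference of the genotype effects between monocytes and macrophages was tested with the library as a block, and 2 of 9143 genes (0.0219%) passed. Levels here are unscaled CPM. Ctsd, the lysosomal protease cathepsin D, stood at 291 and 254 CPM in monocytes of WT S1 and S2, 327 and 287 in WT S5 and S6, 323 and 319.9 in Het S3 and S4, and 454 and 454 in Het S7 and S8. In macrophages it was 1545 and 1475 in WT S1 and S2, 786 and 653 in WT S5 and S6, 698 and 954 in Het S3 and S4, and 554 and 572 in Het S7 and S8. Within each kit version both Het libraries lay above both WT libraries in monocytes and below them in macrophages (log2 difference 1.01, SE 0.15, edgeR adjusted p = 0.0350). Rhoc, a small GTPase, was at 138 and 70.7 CPM in monocytes of Het S3 and S4 and between 3.06 and 24.9 CPM in the other 6 libraries, against 68.3 to 114 CPM in macrophages (log2 difference 2.71, SE 0.41, edgeR adjusted p = 0.0350). Het S3 and S4 were also the libraries with the highest summed level of endothelial genes in monocytes (627 and 647 CPM, against 42.8 to 173 in the others), whose part in the value of Rhoc was not tested. Leaving out Het S4 or Het S8 left no gene called (578 and 511 genes at an unadjusted p under 0.05 in edgeR), and leaving out WT S2 left 28.

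For Col4a1, Col4a2 and Itga6 the difference from macrophages did not pass (log2 2.83, 2.02 and 1.21, edgeR adjusted p = 0.121, 0.204 and 0.285). Against the neutrophil lineage, where Het S4 was the only Het library and the spread rested on 2 residual degrees of freedom, the genotype and that library cannot be told apart. The fit assumes that Het S4 varies like the WT libraries, and its 3 calls of 8227 genes (0.0365%) are given as values of Het S4 against WT. They were Hba-a2 (2.05), a haemoglobin chain whose reads may be exchanged with those of its near-identical copy Hba-a1, Rgs5 (4.26), a regulator of G protein signalling known from pericytes, and Gng11 (2.46). Leaving out WT S5 or WT S6 left no gene called (676 and 675 genes at an unadjusted p under 0.05 in edgeR), and leaving out WT S1 or WT S2 left 1. Rgs5 was at 99.0 CPM in monocytes of Het S4 and at 0 to 18.8 CPM in those of the other 7 libraries. The summed level of 9 mural cell genes, Rgs5 among them, was 203 CPM in Het S4 and 15.0 to 80.8 CPM in the others, and Het S4 also had the highest endothelial sum. The part of these cells in the calls of Rgs5 and Gng11 was not tested.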

How the data were processed

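Droplet-based 3′ single-cell RNA sequencing of parietal bone cells was read from the deposited matrices, which hold raw UMI counts. The authors produced these counts with Cell Ranger 5.0.0 (WT S1 and S2, Het S3 and S4) or 6.0.1 (WT S5 and S6, Het S7 and S8) on build mm10, per the submitters' processing notes, and did not normalize. All libraries listed 31053 genes, of which 30934 were placed by GENCODE release M21 of GRCm38. Cell types were assigned here by UMI limits, with no clustering. The monocyte rule, the gene lists and the tests were chosen with earlier results of these data known.

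UMI counts were summed over the monocytes of a library (18 to 479 cells). Genes were tested with edgeR 4.0.16 (filterByExpr, TMM, glmQLFit and glmQLFTest; limma 3.58.1, R 4.3.3) with genotype and kit version as terms, all 8 libraries and Benjamini-Hochberg adjustment over all genes tested, and called at an adjusted p under 0.05. Differences of genotype effects between cell types had the library as a block. Shares were compared by two-sided exact permutation tests over 70 assignments of libraries, with a smallest p of 0.0286. For subset shares each cell was thinned at random to 1000 UMIs. Ratios within a library used log2(CPM + 5). Intervals are exact binomial (95%). Haematopoietic cells had at least 3 genes of an 11-gene blood list detected. The genes named are those of the rule, 2 to 4 of each list with the highest level or lowest p, the 10 rises and 10 falls with the lowest p at a mean of at least 20 CPM outside the rule, haemoglobin and sex-linked genes and the lists of other cell types, and 5 per direction for cell type and subset contrasts at 50 CPM or more. Others named, such as those read mostly in cells with endothelial UMIs, were chosen after their values were seen. Alternatives were DESeq2 1.42.0, RLE scaling, no filter on low counts, a fit without kit version, a replicate block, each library left out, stricter limits, other limits on mitochondrial UMIs, doublets and mixed cells, and thinned counts. The gene tests were first tested on simulated data. Python 3.11.15 with numpy 2.4.6, pandas 2.3.3, scipy 1.17.1, scikit-learn 1.9.0 and matplotlib 3.10.9 was used for cells and plots.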

Additional observations from a re-analysis of the deposited data

Results flagged for a closer look

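Among 50 groups of 4 libraries checked, 3 held a library far from the others, and chance alone gives about 1 in 20. The granule-gene share of monocytes was 6.19% in Het S4 and 0 in the other 3 Het libraries, which held 32, 21 and 18 monocytes. The MHC class II share was 21.7% in WT S5, against a median of 8.82% in the other WT libraries. F11r was at 46.0 CPM in the monocytes of WT S5, against a median of 17.1 CPM in the other WT libraries.

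The genotype difference in monocytes departed from that in macrophages by 1.01 on the log2 scale for Ctsd and 2.71 for Rhoc, by edgeR's test of the difference. Against the neutrophil lineage only Het S4 could be set against WT, so genotype and library cannot be told apart, and the values were 2.05 for Hba-a2, 4.26 for Rgs5 and 2.46 for Gng11. Gng11 was at 161.5 and 162.6 CPM in monocytes of Het S3 and S4 and at 3.06 to 27.5 CPM in those of the other 6 libraries.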

How the results depend on the processing

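The number of genes called between Het and WT in monocytes, 3 with edgeR, was 7 with DESeq2 (2 of them shared with edgeR, Col4a1 not among them), 226 without a filter on low counts, 7 under 5% mitochondrial UMIs, 86 in kit version 3 alone, 1 in kit version 3.1 alone and 1 with the replicate block. It was 0 without kit version in the model (75 genes at an unadjusted p under 0.05), 0 by the stricter rule (292), 0 without the cells nearest to simulated doublets (294) and 0 with cells thinned to 1000 UMIs (34 of 624 tested). Of the alternatives chosen after seeing the data, leaving out monocytes with 5 endothelial UMIs gave 0 (280), leaving out these and those with under 5 Lyz2 UMIs 0 (304), leaving out WT S1 and S2 0 (366), and leaving out cells with 3 markers of another type at 2 UMIs 8, none of them shared with the 3. That last choice left 9 monocytes each in Het S7 and S8, under the minimum of 10, so both also left the gene tests and the subset shares, and Het was S3 and S4 alone. Leaving out 1 library gave 0 to 5. The difference from macrophages had 2 calls, 4 with DESeq2, 96 without the filter and 0 to 28 with 1 library left out, and that from the neutrophil lineage 3, 2 with DESeq2, 38 without the filter and 0 to 1 with 1 library left out.

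The genotype difference in the share of haematopoietic cells turned from −0.0673 to 2.18 points under 5% mitochondrial UMIs, 1.34 without cells with 3 detected markers of another type and 3.77 without those at 2 UMIs each, and ran from −1.47 to 1.65 with 1 library left out. The granule-gene share turned to 1.28 and the cycling share to 10.2 points without the cells at 2 UMIs each and Het S7 and S8, but were at −0.295 and 2.35 points with all 8 libraries kept. With 1 library left out they ran from −3.20 to −0.154 and from −4.86 to 0.998 points, the MHC class II share from 2.79 to 9.96 and the share of all cells from −5.23 to −2.02. The p of these share differences stayed above 0.05 in the alternatives run. With a library left out, or without Het S7 and S8, the smallest p that the exact permutation test can give is above 0.05. Those settings therefore could not pass. Of the named genes, Ccl3 turned to 0.11 and Elk3 to −0.030 without the cells at 2 UMIs each and without Het S7 and S8, and Igfbp7 to −1.62 without WT S1 and S2. The cause was not tested.

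Title numbers within a kit version were not treated as pairs. Correlations of deviations were 0.18 (WT S1 with Het S3, WT S2 with Het S4) and −0.10 (WT S5 with Het S7, WT S6 with Het S8). With 2 libraries per genotype and kit version, both pairs of a version give the same value by construction. These values therefore cannot show whether the numbers pair the libraries. The block kept Col4a1 alone. The test without cells with 3 detected markers of another type was not run, since only 2 libraries kept 10 monocytes. Het S7 and S8, with 21 and 18 monocytes, limit every share and level.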

Other observations

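Monocytes with under 5 Lyz2 UMIs (106 cells, chosen after seeing the data) had another pooled profile than the monocytes set against them. The latter were the 970 with at least 5 Lyz2 UMIs and under 5 endothelial UMIs. Granule genes were higher in them, with Elane at 2761 against 80.6 CPM, Mpo at 2540.3 against 105, Prtn3 at 3570.0 against 185 and Ctsg at 2222 against 47.4 CPM. So were genes of the basophil and mast cell granule, with Mcpt8 at 780.3 against 0.45 CPM and Prss34 at 824 against 0.15 CPM, and Siglech of plasmacytoid dendritic cells, at 87.5 against 1.2 CPM. Dendritic and MHC class II genes were higher too, with Cd74 at 3481 against 1232 CPM, H2-Ab1 at 1513 against 402 and Flt3 at 66.8 against 7.48, as were T and NK cell genes, with Gzma at 150.4 against 0.15 CPM and Klrd1 at 115 against 3.29. Genes of the mature monocyte were lower, with Fn1 at 19.2 against 1221 CPM, Csf1r at 45.3 against 339 and Ccr2 at 318 against 1087, while Ly6c2 was at 512 against 1022 CPM. At least 2 UMIs of Mcpt8 were found in 13 monocytes and of Siglech in 14, so the limits on Ly6c2 and Ccr2 also admitted some cells with genes of those types. These are values pooled over libraries, with no test.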
